A study of Mus musculus with 16 samples.

Results

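The corticotropin-releasing hormone (CRH) system was examined in the dorsal raphe nucleus (DRN), the main midbrain source of forebrain serotonin. Its members were taken by gene symbol: the peptide Crh, the receptors Crhr1 and Crhr2, the binding protein Crhbp and the related peptide Ucn. Of these 5 genes, 4 were among the 14504 genes of the expression table and Ucn was not listed in the table used here. Rows were taken by symbol alone, and no expression value filtered them. The list of symbols itself was made with earlier results of these data known.

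Polyadenylated RNA from DRN tissue of male C57BL/6 mice (10 to 12 weeks old per the study's methods) was sequenced as 16 libraries. Chronic social defeat lasted 30 days, and stressed mice were classed by their behavior as passive coping (PS, dep1 in the labels) or active coping (AS, dep2 in the labels). Unstressed mice served as controls. Every mouse received either saline or dexamethasone (DEX, 2 mg/kg), a synthetic glucocorticoid, and tissue was collected 6 h after the injection. There were 3 control saline, 3 control DEX, 2 PS saline, 3 PS DEX, 3 AS saline and 2 AS DEX libraries, named here as in the labels (con_sal_114, for example). The methods describe DRN tissue as punched from frozen sections, and state that DRN libraries with low Tph2 were left out of the DEX-treated PS and AS groups. The methods count more DRN libraries than the 16 used here, and no further libraries were analysed here, so the group sizes do not follow from that exclusion alone. Nothing in the labels says which libraries came from separate animals, while the methods describe the animals within each treatment condition as biological replicates. The p-values measure the spread between these libraries.

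CRH is a peptide that starts the hormonal stress response from the hypothalamus and also acts as a neuromodulator in the brain stem. Its receptors CRHR1 and CRHR2 are coupled mainly to Gs and raise cAMP, and in the DRN they are known to act in opposite directions on serotonin neurons. CRHBP binds CRH and urocortin outside the cell and limits the free peptide. Glucocorticoids repress Crh in the hypothalamus and raise it in some other regions.

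The sequences before the starts of the receptor genes are shown because DEX acts through a nuclear receptor that binds DNA near genes. RefSeq windows of 250 bases before the start (GRCm38.p6) were matched for Crhr1 and Crhr2, and capitals mark any match to the motifs searched on both strands. These were the glucocorticoid response element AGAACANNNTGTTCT, its hexamer AGAACA, the cAMP response element TGACGTCA, its core pentamer TGACG (which lies inside the full element) and the TATA box TATAAA. The Crhr1 window lies at chr11:104132531-104132780 on the plus strand and the Crhr2 window at chr6:55133017-55133266 on the minus strand.
Crhr1: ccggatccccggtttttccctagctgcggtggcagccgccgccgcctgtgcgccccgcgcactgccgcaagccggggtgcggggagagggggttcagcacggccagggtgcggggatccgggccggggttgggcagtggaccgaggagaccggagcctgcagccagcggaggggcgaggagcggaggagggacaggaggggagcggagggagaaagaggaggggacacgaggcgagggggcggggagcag
Crhr2: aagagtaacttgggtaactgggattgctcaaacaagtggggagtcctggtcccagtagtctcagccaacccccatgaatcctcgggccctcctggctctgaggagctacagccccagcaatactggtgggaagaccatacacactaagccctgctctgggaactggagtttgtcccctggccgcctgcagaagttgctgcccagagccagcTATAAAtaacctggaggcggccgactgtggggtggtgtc
The Crhr1 window, 74.8% G and C, held none of these motifs. The Crhr2 window, 57.6% G and C, held 1 TATA box, from base -39 to base -34 before the start. Over 32851 RefSeq windows of the same length, the TATA box occurred in 12.4%, the glucocorticoid hexamer in 16.1%, the cAMP pentamer in 17.8%, the full cAMP response element in 1.55% and the full glucocorticoid response element in 0.00913%. For Crhbp the RefSeq start lay 93 bases inside the GENCODE gene, so its window is not printed, and its 1 match was a cAMP pentamer. The Crhr1 window ended 74 bases short of the GENCODE gene, and the Crhr2 window ended directly before it. A letter match is a description of the window and not evidence of binding. A lack of matches is not evidence against binding, since the full glucocorticoid response element is rare in such windows and sites beyond 250 bases were not searched.

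Checks on the samples came first. Tph2, the enzyme of serotonin synthesis, lay between 91764 and 182191 normalized counts (counts per gene after division by a size factor for each library) in the 16 libraries. Fkbp5, a direct glucocorticoid receptor target, lay between 1241 and 1536 in the 8 saline libraries and between 5578 and 6958 in the 8 DEX libraries, without overlap. Depth was 38207157 to 62447298 reads in listed genes. Cartpt, a neuropeptide precursor, stood at 2968 in con_dex_101 and at 1409 in dep2_sal_8, against 19.5 to 273.8 in the other libraries.

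The 4 listed genes were expressed at low to moderate levels. Crh (ENSMUSG00000049796.4, chr3:19693401-19695396, minus strand) averaged 60.1 ± 18.0 normalized counts (SD, n = 16), from 26 to 93 reads per library. Crhr1 (ENSMUSG00000018634.10, chr11:104132855-104175523, plus strand) averaged 276.6 ± 84.9. Crhr2 (ENSMUSG00000003476.16, chr6:55090049-55133016, minus strand) averaged 785.4 ± 225.2, the highest of the 4 before length was considered. Crhbp (ENSMUSG00000021680.8, chr13:95431371-95444924, minus strand) averaged 222.4 ± 75.8. All are protein-coding, the coordinates are GRCm38, and no other annotated gene overlapped any of them.

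Per kilobase of exon the order was Crhr2, Crhbp, Crhr1 and Crh. The levels per kilobase were 153.6 ± 44.0 for Crhr2, 123.5 ± 42.1 for Crhbp, 112.4 ± 34.5 for Crhr1 and 45.5 ± 13.6 for Crh (SD, n = 16). The first 3 were not in this order in every library: Crhr2 was above Crhbp in 13 of 16 libraries, and Crhbp was above Crhr1 in 10 of 16. Crh was below both Crhr1 and Crhbp in 16 of 16 libraries and below Crhr2 in 15, the exception being con_sal_114. With the longest transcript in place of all exons, Crhr2 was at 268.6 ± 77.0 per kilobase, since its annotated exons together span 5115 bases and its longest transcript 2924. On that scale Crhbp was at 125.0 ± 42.6 and Crhr1 at 112.4 ± 34.5. Of all genes with a length, 7.15% were lower per kilobase than Crh and 35.3% lower than Crhr2.

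**Figure D1:**
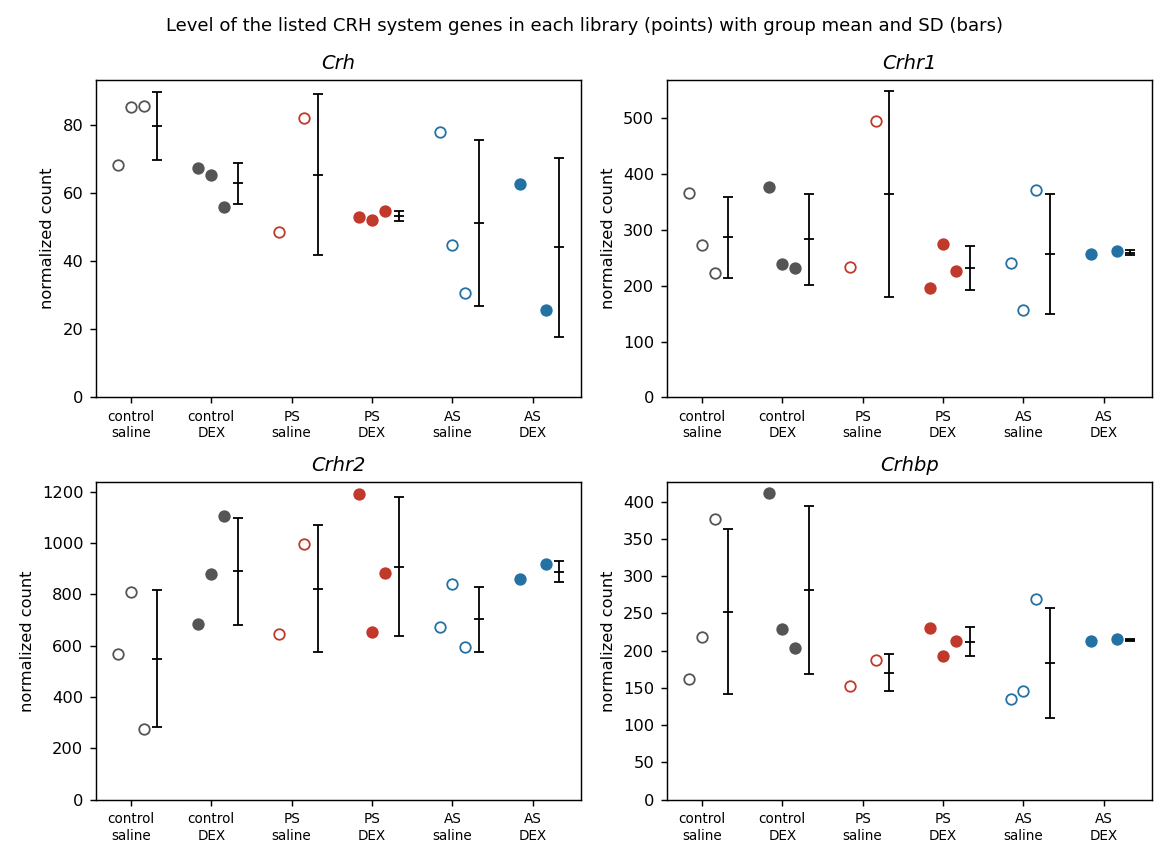
Normalized counts of Crh, Crhr1, Crhr2 and Crhbp (vertical axes, from 0) in each of 16 libraries by group; open points are saline, filled points DEX, and bars beside them the group mean and SD. Crh in control DEX lies below control saline without overlap, and Crhr2 in con_sal_114 lies lowest of all libraries at 274.8.

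No member passed the test in any contrast. Over 12 contrasts and 4 genes, limma called 0 of 48 differences at an adjusted p under 0.1, and 2 of 48 had an unadjusted p under 0.05. The same limma test called 1.26% of all genes for DEX in controls, 0.703% in PS, 0.689% in AS and 4.31% for DEX averaged over the 3 phenotypes. It called 0% in each saline contrast between phenotypes, 0% for PS against control averaged over treatments, 0.0138% for AS against control averaged over treatments and 0% in the 3 interactions.

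On whole reads recovered from the values, edgeR called 0 of the 48, with 1 at an unadjusted p under 0.05, and DESeq2 likewise called 0, with 1 at an unadjusted p under 0.05. For DEX in controls, in PS, in AS and averaged over phenotypes, edgeR called 1.24%, 0.696%, 0.703% and 4.29% of all genes, and DESeq2 3.01%, 1.29%, 1.89% and 6.23%. For AS against control averaged over treatments edgeR called 0.0483% and DESeq2 0.255%, and for PS against control averaged over treatments 0% and 0.0138%. In the saline contrasts edgeR called 0%, and DESeq2 called 0.0758% between AS and control, 0.0276% between PS and control and 0.00689% between the stressed groups. In the interactions edgeR called 0%, and DESeq2 called 0.00689% for AS minus PS and 0% for both others.

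Crh, the peptide of the system, had its 2 highest values in control saline mice. Its normalized counts were 68.4, 85.5 and 85.7 in control saline, and 67.4, 65.5 and 56.0 in control DEX. They were 48.7 and 82.2 in PS saline, and 53.2, 52.2 and 54.9 in PS DEX. They were 78.1, 44.8 and 30.8 in AS saline, and 62.6 and 25.6 in AS DEX. The control groups did not overlap, by a margin of 68.4 against 67.4, while both pairs of stressed groups overlapped. Among all genes, 7.43% were likewise lower in control DEX than in control saline without overlap.

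On the log2(normalized count + 1) scale, the Crh difference between DEX and saline was -0.34 in controls (SE 0.37, limma adjusted p = 0.734), -0.24 in PS (SE 0.41) and -0.24 in AS (SE 0.41). Averaged over phenotypes it was -0.27, with a 95% interval of -0.77 to 0.22, or 0.587 to 1.17 times the saline level. Counting error alone was 10.4% to 19.6% of each Crh value.

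The stress difference of Crh with the lowest p was between AS and control mice averaged over treatments, -0.68 (SE 0.28, unadjusted p = 0.0285, limma adjusted p = 0.9997). This corresponds to a control level 1.60 times that of AS, with an interval of 1.06 to 2.42. Of all genes, 2.10% had an unadjusted p under 0.05 in this contrast. Without dep2_dex_42 the difference was -0.36 and without dep2_dex_38 it was -0.99, so these libraries moved it most. Without both libraries high in Cartpt it was -0.50. AS saline differed from control saline by -0.72 (SE 0.37, limma adjusted p = 0.998), and PS saline from control saline by -0.32 (SE 0.41).

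Crhr1, the receptor with high affinity for CRH, showed no called difference, and its group means lay between 232.3 and 364.5. Its normalized counts were 365.6, 273.9 and 222.2 in control saline, and 377.6, 239.9 and 231.7 in control DEX. In PS they were 233.7 and 495.2 with saline, and 195.9, 274.9 and 226.1 with DEX. In AS they were 241.3, 157.4 and 370.9 with saline, and 256.6 and 262.6 with DEX. Every DEX group overlapped its saline group, and dep1_sal_68 was the highest library.

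The Crhr1 difference between DEX and saline was -0.03 in controls (SE 0.33), -0.56 in PS (SE 0.37, limma adjusted p = 0.9999) and 0.10 in AS (SE 0.37). The PS value rested on dep1_sal_68, without which it was -0.02, with the remaining saline library assumed to vary like those of the other groups. Averaged over phenotypes it was -0.16, with an interval of -0.61 to 0.28 (limma adjusted p = 0.733). It was -0.43 with the level of serotonin markers as a covariate and 0.02 without dep1_sal_68. Against control saline, Crhr1 differed by 0.27 in PS (SE 0.37) and by -0.22 in AS (SE 0.33).

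Crhr2, the receptor that binds urocortins with high affinity, came closest to a call after DEX. Its normalized counts were 565.7, 808.4 and 274.8 in control saline, and 684.3, 880.2 and 1103 in control DEX. They were 646.6 and 995.8 in PS saline, and 1191, 651.9 and 881.2 in PS DEX. They were 672.3, 841.1 and 593.0 in AS saline, and 860.7 and 916.6 in AS DEX. The AS groups did not overlap, with DEX higher, as for 15.1% of all genes, and the control and PS groups overlapped.

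The Crhr2 difference between DEX and saline was 0.80 in controls (SE 0.34, unadjusted p = 0.0321, limma adjusted p = 0.364), or 1.74 times the saline level with an interval of 1.06 to 2.87. An unadjusted p under 0.05 was reached by 12.1% of all genes in this contrast. Without con_sal_114 the difference was 0.37, and without con_sal_104 it was 1.14. In PS it was 0.14 (SE 0.38) and in AS 0.35 (SE 0.38).

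Averaged over phenotypes, Crhr2 was 0.43 higher after DEX (SE 0.21, interval -0.02 to 0.88, limma adjusted p = 0.380). This difference stayed above 0 in each of the 31 alternative settings, from 0.29 to 0.62. With libraries weighted by their quality in limma it was 0.53 with an adjusted p of 0.0803, the lowest adjusted p of any member in any setting, and in that setting 9.16% of all genes were called. In the remaining settings its adjusted p ranged upward from 0.208. Stressed saline mice had values above control saline by 0.68 in PS (SE 0.38, limma adjusted p = 0.571) and 0.47 in AS (SE 0.34, limma adjusted p = 0.998), both differences resting on the same 3 control libraries. Without con_sal_114 these were 0.25 in PS and 0.04 in AS.

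Crhbp, which sequesters CRH, had its 3 highest values in libraries from 3 different groups. Its normalized counts were 162.5, 217.9 and 376.2 in control saline, and 411.3, 229.7 and 203.7 in control DEX. They were 152.9 and 188.1 in PS saline, and 231.0, 192.3 and 213.4 in PS DEX. They were 135.6, 145.5 and 269.0 in AS saline, and 213.2 and 215.4 in AS DEX. The PS groups did not overlap, with DEX higher, as for 11.2% of all genes.

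The Crhbp difference between DEX and saline was 0.18 in controls (SE 0.33), 0.32 in PS (SE 0.37) and 0.29 in AS (SE 0.37). Averaged over phenotypes it was 0.26, with an interval of -0.19 to 0.71 (limma adjusted p = 0.575), and it was 0.26 without both libraries high in Cartpt. The control value became -0.13 without con_dex_101. Averaged over treatments, Crhbp differed from controls by -0.41 in PS (SE 0.25) and -0.38 in AS (SE 0.25), and both contrasts share the control libraries. Without both libraries high in Cartpt these were -0.26 in PS and -0.38 in AS. Leaving out con_dex_101 alone gave -0.26 and -0.23, leaving out con_sal_114 gave -0.24 and -0.21, and leaving out dep2_sal_8 gave -0.54 in AS.

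**Figure D2:**
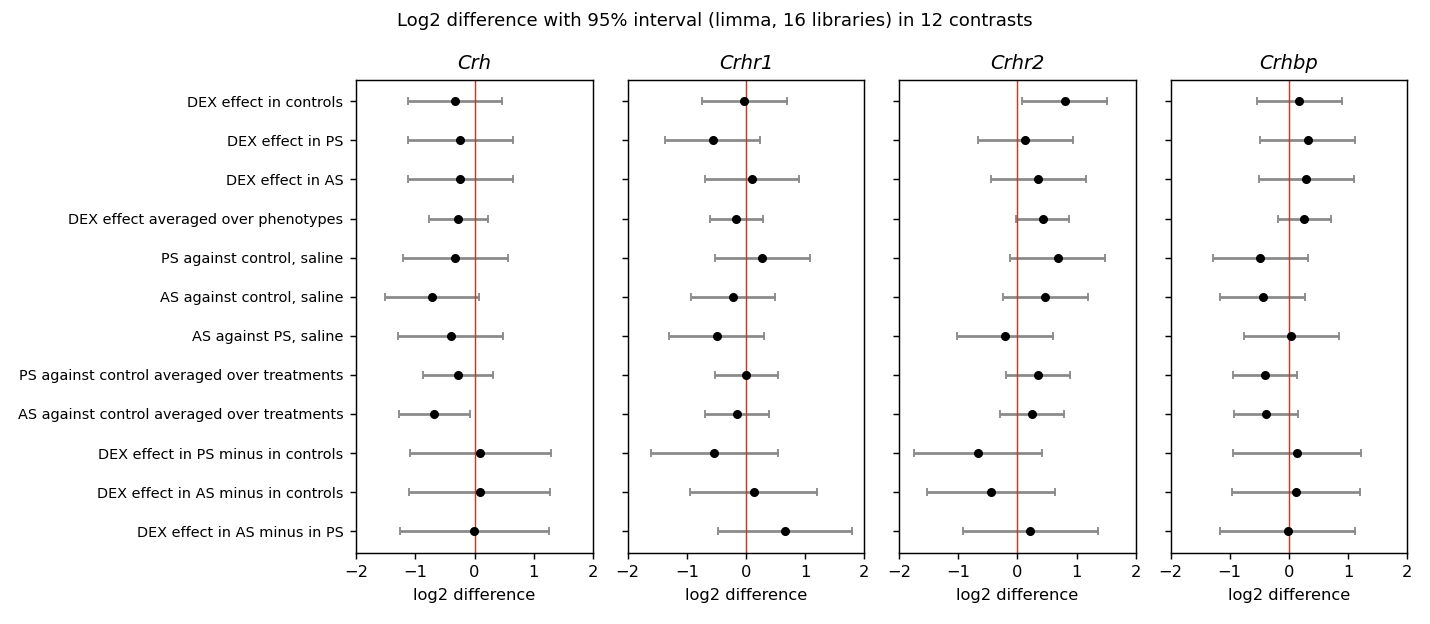
Log2 difference (horizontal axes) of each listed gene in 12 contrasts (rows) from limma on all 16 libraries; points are estimates and bars 95% intervals. The intervals for Crhr2 with DEX in controls (0.08 to 1.52) and for Crh in AS against control averaged over treatments (-1.28 to -0.08) leave out 0 before adjustment.

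Whether DEX acted differently in the phenotypes was tested by the interactions. The 12 interaction differences of the 4 genes ranged from -0.66 to 0.67, and the lowest unadjusted p among them was 0.208. The widest were Crhr2 in PS minus controls, -0.66 (SE 0.50), and Crhr1 in AS minus PS, 0.67 (SE 0.53). Their intervals, -1.75 to 0.42 and -0.47 to 1.80, allow differences of either sign.

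The members varied between libraries of the same group more than most genes did. The residual SD on the log2 scale was 0.45 for Crh, 0.45 for Crhr1, 0.47 for Crhr2 and 0.45 for Crhbp, against a median of 0.21 over all genes. Against the 500 genes nearest in mean level, the SD of Crhr2 exceeded 97% of them and that of Crhr1 83.8%. For Crhbp the share was 77% and for Crh 40%. In tissue of this kind, fewer cells of a type and less RNA per cell cannot be told apart.

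Values of cell type markers were therefore set beside the members, as descriptions over 16 libraries that span 6 groups and all come from punched tissue. Crhbp varied with Cartpt (Pearson r = 0.783, Spearman rho = 0.871), which marks, among other cells, the peptide neurons of the nearby Edinger-Westphal nucleus, whose defining peptide Ucn was not listed. The r was 0.679 without the 2 libraries farthest from the median of Cartpt. Of the other peptides listed for that nucleus, Cck had an r of 0.490 (rho = 0.841) with Crhbp. Nucb2 had an r of 0.016 (rho = 0.068), so it did not vary with Crhbp. After Cartpt, the widest r of Crhbp was with Gata3, a transcription factor of serotonin neurons, in the opposite direction (r = -0.719, rho = -0.685). Over the 8 serotonin neuron markers the r of Crhbp ran from -0.719 for Gata3 to -0.056 for Ddc (rho = 0.176), with -0.215 for Tph2. The 3 libraries highest in Crhbp, con_dex_101, con_sal_114 and dep2_sal_8, were also the 3 highest in Cartpt, at 2968, 273.8 and 1409. Over the whole list of 3 markers for that nucleus (Cartpt, Cck and Nucb2), summed counts were 1695 to 3339 in control saline, 1747 to 5169 in control DEX, 841.2 to 1781 in PS saline, 1611 to 2075 in PS DEX, 1411 to 3151 in AS saline and 1799 to 1990 in AS DEX. With the level of this list as a covariate, the Crhbp difference averaged over phenotypes was 0.07 in place of 0.26, and the one of PS against control averaged over treatments was -0.06 in place of -0.41. With the serotonin marker level as a covariate instead, these were 0.06 and -0.52, so the DEX difference shrank about as far with either list. The Crhbp difference of AS against control averaged over treatments, -0.38, stayed between -0.54 and -0.21 in all 31 alternatives, these covariates among them.

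Of the 2 glutamate neuron markers, Crhr2 varied with Slc17a8, a vesicular glutamate transporter found in many serotonin neurons (r = 0.767, rho = 0.515), and ran against Slc17a6, the transporter of most other midbrain glutamate neurons (r = -0.703, rho = -0.50). The library con_sal_114 was the lowest in both Crhr2 and Slc17a8, at 274.8 and 5085. Without the 2 libraries farthest from the median of each marker, the r was 0.322 for Slc17a8 and -0.525 for Slc17a6, so the first relation rested largely on those libraries. Over the 8 serotonin neuron markers the r of Crhr2 ran from -0.384 for Slc22a3 to 0.444 for Slc6a4, with 0.127 for Tph2.

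Crhr1 ran against Slc1a3, an astrocyte glutamate transporter (r = -0.769, rho = -0.847), and Gfap, the astrocyte filament protein (r = -0.756, rho = -0.668), and with Gad1, the enzyme of GABA synthesis (r = 0.686, rho = 0.794). Without the 2 libraries farthest from the median of each marker, the r was -0.766 for Slc1a3, -0.758 for Gfap and 0.723 for Gad1. Pdgfrb of mural cells had an r of 0.687, near that of Gad1. Crh had an r of 0.301 for Tph2 and -0.244 for Cartpt over all 16 libraries, and of 0.596 and -0.158 without the 2 farthest. Tph2 was the highest of the 8 serotonin neuron markers in both cases, and Gata3 the lowest, at -0.105 and -0.078. Without the 2 farthest, the r of Crh was 0.307 for Gch1, 0.216 for Slc6a4 and 0.025 for Fev, so the list as a whole did not vary with Crh. Among the members themselves, the widest r was -0.344, between Crhr2 and Crhbp, with a rho of 0.024. Without the 2 libraries farthest from the median of Crhbp this r was 0.322, and without the 2 farthest from that of Crhr2 it was -0.018, so the relation did not hold. For Crh and Crhr1 the r was 0.146 over all libraries, and 0.546 or -0.152 without 2, depending on which gene chose them. The part of these markers in the DEX and stress differences was not tested beyond the covariate settings.

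**Figure D3:**
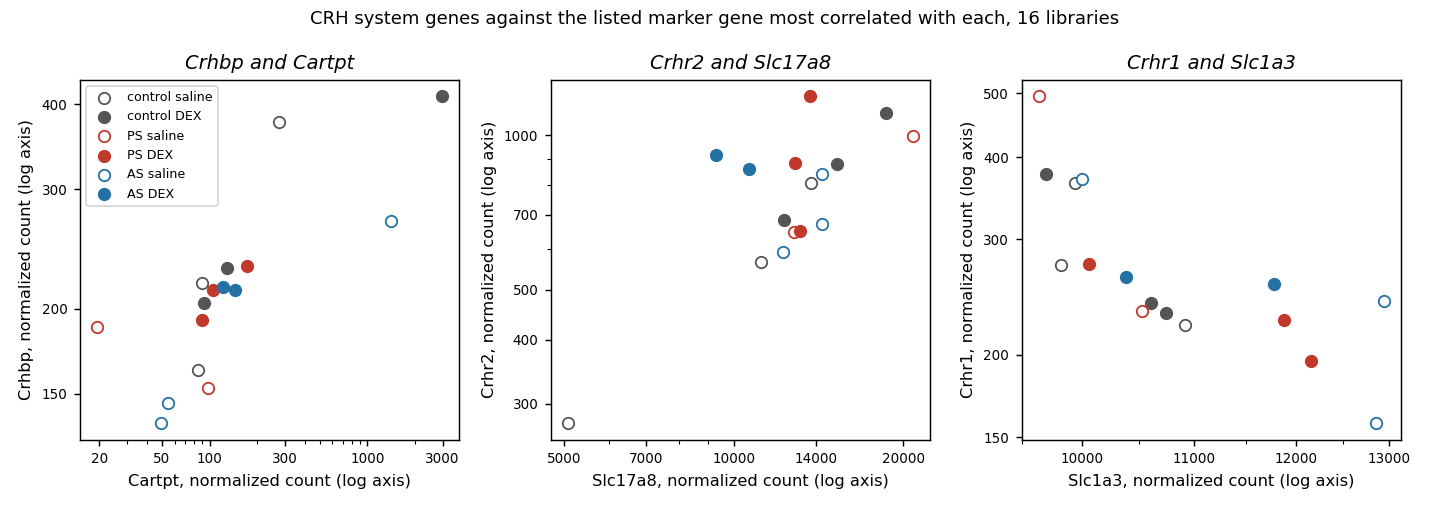
Normalized counts of Crhbp against Cartpt, Crhr2 against Slc17a8 and Crhr1 against Slc1a3 (both axes log) in 16 libraries, open for saline and filled for DEX. The 3 libraries highest in Cartpt are also highest in Crhbp, con_sal_114 sits apart at the low end of Crhr2 and Slc17a8, and dep1_sal_68, highest in Crhr1, is lowest in Slc1a3.

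The genes most like each member were ranked by Pearson r over 16 libraries among 12863 genes with a mean of at least 100. Nearest to Crhr1 were Nacc2, a transcriptional repressor (r = 0.935), Cables2 (r = 0.902) and Hapln4, a link protein of perineuronal nets (r = 0.891). Nearest to Crhr2 were Cited1, a transcriptional coactivator (r = 0.872), Fam20a (r = 0.790) and Ppp1r13l (r = 0.783). Nearest to Crhbp were C1ql3, a secreted synaptic protein (r = 0.798), Sh3bgrl2 (r = 0.787) and Cartpt (r = 0.783). Nearest to Crh were Gm12715 (r = 0.751), Acss2, which makes acetyl-CoA from acetate (r = 0.730), and Nek6 (r = 0.688). Without the 2 libraries farthest from the median, r was 0.909 for Nacc2 and 0.823 for Cited1 but 0.516 for C1ql3.

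Genes that act with the CRH system were taken from a list of 57 symbols, of which 50 were in the table and 2 were older names of Grk2 and Grk3. Ucn2 and Ucn3, the CRHR2 ligands, were not listed in the table used here, nor were Avp, Avpr1b and Oxt. After DEX, averaged over phenotypes, limma called 4 of the 50, 1 higher and 3 lower, against 4.31% of all genes, 2.78% higher and 1.53% lower. The median difference over the list was -0.015, and -0.0026 over all genes.

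The called genes were both corticosteroid receptors and 2 genes of cAMP signaling. The latter were 1 of 2 EPAC genes (cAMP-activated exchange factors) and 1 of 7 adenylyl cyclases. Limma called 0 of 6 protein kinase A subunits, 0 of 5 genes of CREB and its coactivators and 0 of 3 cAMP breakdown genes. Over all genes the share called was 4.31%, so 2 calls are no result about cAMP signaling. Nr3c1, the glucocorticoid receptor, fell by 0.54 (SE 0.07, adjusted p = 0.000423). Its normalized counts were 5704, 6018 and 6181 in control saline against 4095, 4993 and 5624 in control DEX. In PS they were 6189 and 6672 with saline against 4087, 4122 and 4432 with DEX. In AS they were 5889, 6021 and 7386 with saline against 3760 and 4000 with DEX. Every DEX library was below every saline library, as for 0.510% of all genes.

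Within phenotypes Nr3c1 was the sole list gene called by limma and edgeR, in PS (limma -0.61, SE 0.13, adjusted p = 0.0596) and AS (-0.72, SE 0.13, adjusted p = 0.0202). DESeq2 also called Rapgef3 in AS and Arrb2, an arrestin, in controls. In controls Nr3c1 differed by -0.29 (SE 0.11, adjusted p = 0.332), and the interaction of AS minus controls was -0.43 (SE 0.17, adjusted p = 0.941). The PS call was lost without dep1_dex_34, dep1_dex_64, dep1_sal_62 or dep1_sal_68, where the adjusted p reached 0.423, and the AS call without dep2_dex_38 or dep2_dex_42, where it reached 0.422.

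Nr3c2, the mineralocorticoid receptor, fell by 0.36 (SE 0.08, adjusted p = 0.0299), from group means of 1600, 1848 and 1753 with saline in control, PS and AS mice to 1418, 1359 and 1268 with DEX. Its call was lost without dep2_dex_42 (adjusted p = 0.121), without dep1_sal_62, and without both libraries high in Cartpt (adjusted p just over the threshold). Rapgef3, the cAMP-activated exchange factor EPAC1, rose by 0.41 (SE 0.08, adjusted p = 0.00984), from 1719, 1845 and 1709 to 2034, 2391 and 2630. Adcy8, an adenylyl cyclase stimulated by calcium, fell by 0.51 (SE 0.13, adjusted p = 0.0512), from 1296, 1792 and 1564 to 1040, 1073 and 1108. Leaving out single libraries ended the Adcy8 call in 6 of 16 cases, with an adjusted p of up to 0.215. The libraries were dep1_dex_34, dep1_dex_64, dep1_sal_68, dep2_dex_38, dep2_dex_42 and dep2_sal_14.

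No other gene of the route from receptor to nucleus was called by limma or edgeR averaged over phenotypes, while DESeq2 called 6 list genes there, the same 4 with Plcb1 and Arrb2. The 5 G protein genes differed by -0.18 to -2.7e-05, the 6 protein kinase A subunits by -0.10 to 0.04 and the 5 genes of CREB and its coactivators by -0.04 to 0.25. The 6 arrestin and receptor kinase genes, which end receptor signaling, differed by -0.13 to 0.21, and the 3 prohormone processing genes by -0.10 to 0.06. Plcb1, a phospholipase C, had a difference of 0.55 (SE 0.16, limma adjusted p = 0.104), just outside the threshold in limma, and Arrb2 one of -0.13 (SE 0.05, limma adjusted p = 0.213). Pomc, the pituitary target of CRH, differed by -0.29 (SE 0.19, adjusted p = 0.510).

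In the stress and interaction contrasts limma called 0 of the 50 list genes, with 0 to 3 at an unadjusted p under 0.05, and edgeR and DESeq2 also called 0. In controls after DEX, limma and edgeR called 0, with 5 at an unadjusted p under 0.05, and DESeq2 called Arrb2 alone. Of 55 cell type markers, limma called 4 with DEX averaged over phenotypes, all lower, against 4.31% of all genes called and 1.53% called lower: Cx3cr1 and P2ry12 of microglia, Mog of myelin and Slc22a3 of serotonin neurons. The summed counts of the 4 microglia markers were 3607 to 4908 over the saline groups and 2813 to 3457 over the DEX groups, and their part in the list results was not tested.

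**Figure D4:**
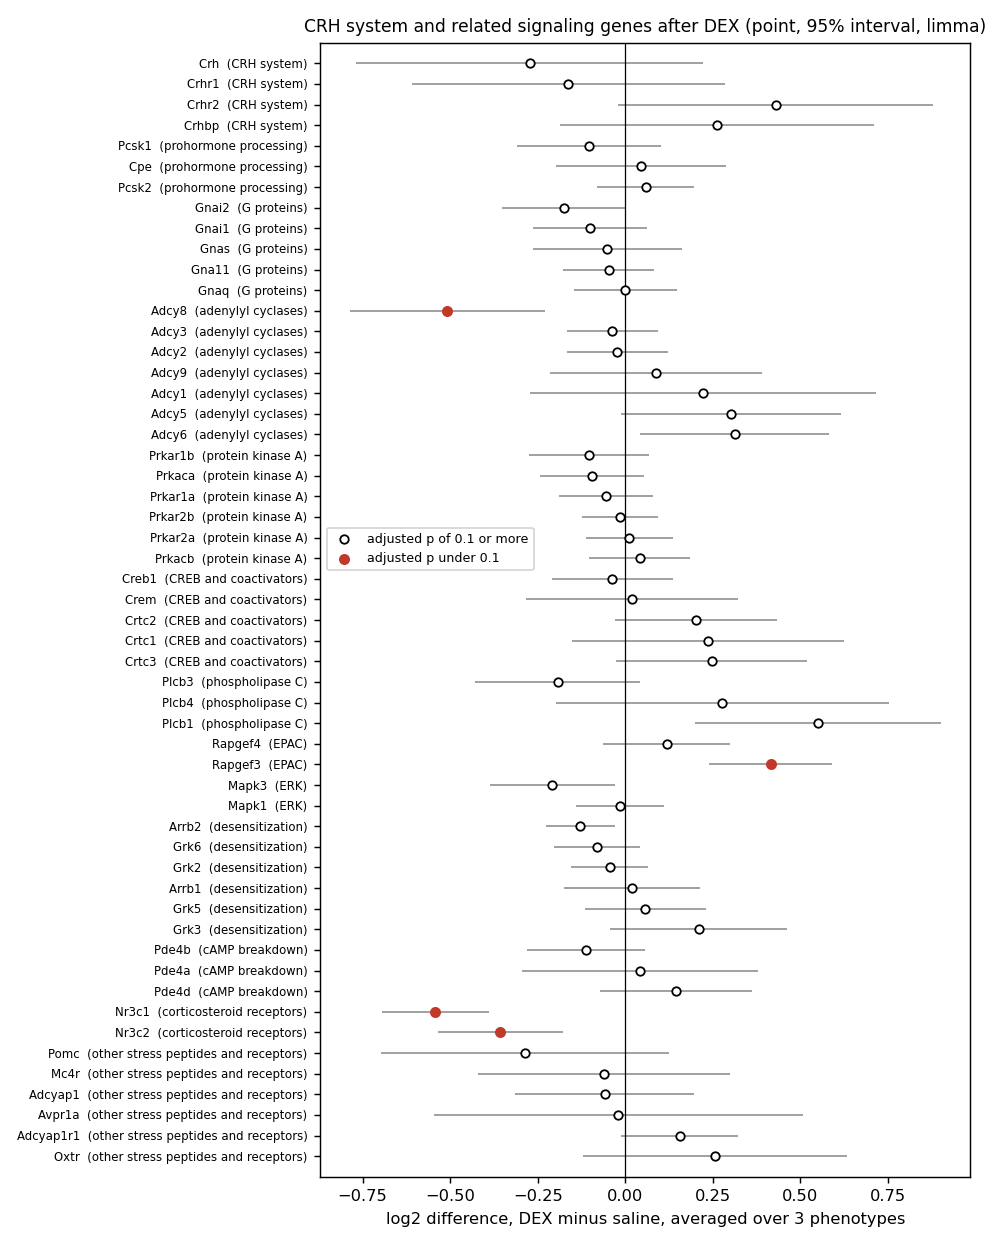
Log2 difference between DEX and saline averaged over 3 phenotypes (horizontal axis) for the 4 listed CRH system genes and 50 related genes, by role; points are limma estimates and bars 95% intervals. Filled points, Adcy8, Rapgef3, Nr3c1 and Nr3c2, had an adjusted p under 0.1, and the 4 CRH system genes are open.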

How the data were processed

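The authors trimmed reads with fastp 0.20.1, aligned them with HISAT2 2.2.1 to GRCm38 and counted them with featureCounts (Subread 2.0) on GENCODE annotation, per the labels and methods; the strand setting of the counting was not given in the sources used here. The deposited signal is gene counts divided by 1 DESeq2 (1.36.0) size factor per library. The deposited tables of comparisons hold the authors' log2 fold changes, p-values and adjusted p-values and were not used.

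In all 16 libraries the values were whole reads (tolerance 0.01) once the factor was undone. As the table was already filtered, all 14504 genes were tested, although 973 were under 10 reads in some library. Log2(normalized count + 1) was fitted by limma 3.58.1 (R 4.3.3) with 1 mean per group over all libraries, a mean-variance trend, and Benjamini-Hochberg adjustment over all genes of a contrast. Genes were called at an adjusted p under 0.1. edgeR 4.0.16 (quasi-likelihood) and DESeq2 1.42.0 on recovered reads, other pseudocounts, filters, scalings, weights and covariates, and leaving out each library, were alternatives. The choice of leaving out both libraries with over 1000 counts of Cartpt was made after seeing the data. Scripts were tested on simulated data. Lengths and coordinates came from GENCODE vM21 (GRCm38), and sequences from RefSeq (GRCm38.p6). Counting error covers reads only.

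Named genes were the members in each contrast, list genes called in any contrast, the 3 genes most like each member by Pearson r, Nr3c1, Nr3c2, Fkbp5 and Tph2. Plcb1, Pomc, the markers named and Arrb2 were named after their values were seen. The members and all lists were chosen with earlier results of these data known.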

Additional observations from a re-analysis of the deposited data

How the results depend on the processing

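The 48 member differences were recomputed under 31 alternatives, 16 of which left out 1 library each. Of 1476 recomputed values, 1397 kept their direction and their side of the threshold, 78 turned direction without being called and 1 became called. Crh, with a mean under 100, had no value under the filter of at least 100. No member difference that turned was called before or after. The 1 call made was Crhr2 after DEX averaged over phenotypes with library weights, so the number of members called there was 1 in place of 0. The cause was not tested for any of these changes.

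Values that turned on the log2 scale follow by setting. With the Edinger-Westphal peptide level as a covariate, Crh was 0.012 for DEX in PS, and Crhr2 was 0.16 for AS against PS with saline and -0.12 for DEX in AS minus PS. There, Crhbp was -0.10 for DEX in PS, 0.013 for PS against control with saline, -0.39 for AS against PS with saline, -0.14 for DEX in PS minus controls and 0.37 for DEX in AS minus PS. With library weights, Crh was 0.11 for AS against PS with saline and -0.46 for DEX in AS minus controls, Crhr1 was -0.15 for PS against control averaged over treatments, and Crhbp was -0.19 for AS against PS with saline and 0.13 for DEX in AS minus PS. Without both libraries with Cartpt over 1000, Crh was -0.17 for DEX in AS minus controls, and Crhbp was -0.13 for DEX in controls, -0.27 for AS against PS with saline and 0.29 for DEX in AS minus PS. With quantile normalization, Crh was 0.16 for DEX in AS minus PS, Crhr1 was -0.067 for PS against control averaged over treatments, and Crhbp was -0.035 for AS against PS with saline and 0.073 for DEX in AS minus PS. With the serotonin marker level as a covariate, Crhr1 was -0.30 for DEX in AS, -0.14 for PS against control averaged over treatments and -0.14 for DEX in AS minus controls, and Crhbp was -0.0031 for DEX in AS and -0.082 for DEX in AS minus controls. With the choroid plexus level as a covariate, Crhr1 was -0.095 for PS against control averaged over treatments. For DEX in AS minus PS, Crh was 0.018 with a pseudocount of 10, 0.071 with edgeR, 0.086 with DESeq2 and 0.0032 with the serotonin covariate.

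Leaving out single libraries, the ranges that crossed 0 were as follows. Crh ranged from -0.61 to 0.13 for DEX in PS, -0.87 to 0.39 for DEX in AS, -0.70 to 0.048 for PS against control with saline, and, for the interactions, -0.28 to 0.47 for PS minus controls, -0.54 to 0.72 for AS minus controls and -0.63 to 0.63 for AS minus PS. Crhr1 ranged from -0.25 to 0.16 for DEX in controls, -0.20 to 0.41 for DEX in AS, -0.34 to 0.018 for DEX averaged over phenotypes, -0.27 to 0.81 for PS and -0.53 to 0.089 for AS against control with saline, -1.03 to 0.048 for AS against PS with saline, -0.26 to 0.28 for PS and -0.31 to 0.00073 for AS against control averaged over treatments, -1.07 to 0.0056 for DEX in PS minus controls and -0.18 to 0.44 for DEX in AS minus controls. Crhr2 ranged from -0.18 to 0.45 for DEX in PS, -0.52 to 0.10 for AS against PS with saline and -0.092 to 0.53 for DEX in AS minus PS. Crhbp ranged from -0.13 to 0.51 for DEX in controls, -0.27 to 0.22 for AS against PS with saline, -0.19 to 0.45 for DEX in PS minus controls, -0.21 to 0.43 for DEX in AS minus controls and -0.20 to 0.29 for DEX in AS minus PS.

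The count of called list genes for DEX in controls, 0, was 1 with DESeq2 and 2 with the choroid plexus covariate. In PS it was 1, against 5 with library weights and 0 with the Edinger-Westphal covariate. In AS it was 1, against 2 with a mean of at least 100, 0 when only the groups compared were fitted, 4 with library weights, 2 with DESeq2 and 2 with the choroid plexus covariate. Averaged over phenotypes it was 4, against 6 with DESeq2, library weights or the choroid plexus covariate, 5 with a mean of at least 100 or quantile normalization, 3 with the Edinger-Westphal covariate and 2 without both libraries with Cartpt over 1000. Plcb1 was among those called wherever this count was 5 or 6 with all libraries, and Arrb2 with DESeq2 and library weights. Without single libraries these counts ranged from 0 to 1 in controls, 0 to 1 in PS, 0 to 2 in AS and 2 to 5 averaged over phenotypes. The level of Crhr2 per kilobase moved from 153.6 to 268.6 with the longest transcript. Of the 3 genes most like each member, Spearman kept 1 for Crhr1, 1 for Crhr2 and 1 for Crhbp, and 2 for Crh.

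No paired analysis was possible because the library numbers in the labels differ between groups. With 2 or 3 libraries a group and residual SDs of 0.45 to 0.47, intervals were wide, such as -0.74 to 0.69 for Crhr1 with DEX in controls. Differences of that size, and larger ones, could go uncalled. The Crhr2 difference with DEX in controls, 0.80, was not called (limma adjusted p = 0.364). Crh rested on 26 to 93 reads a library, and its counting error is a part of that spread.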
